A study of Mus musculus with 30 samples.

Results

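Cells of the mHypoA-2/12 line kept for 24 h with 0.75 µM of cannabidiol (CBD) were compared with cells kept for the same time with vehicle. All libraries with these treatment labels were used, 3 with CBD (A22, A23 and A24) and 3 with vehicle (A28, A29 and A30), which are 6 of the 30 libraries of the series. The line comes from the hypothalamus of adult mice and was immortalized with the SV40 T antigen, so all groups carry that antigen and stand for a single cell line. CBD was dissolved in DMSO, and vehicle cells received 0.1% DMSO in the same medium, DMEM with GlutaMAX. The other libraries hold CBD at 0.325, 1.5 and 3 µM at 24 h, and all doses and vehicle at 6 h, with 3 libraries per group. Nothing states that the 3 libraries of a group came from separate passages or days, and p-values then measure only the spread between these libraries.

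CBD is a plant cannabinoid that does not act like tetrahydrocannabinol at the CB1 receptor. Ion channels of the TRP family, serotonin and adenosine receptors, nuclear receptors of the PPAR family and enzymes that degrade endocannabinoids have been proposed as its targets, and it is known for actions on inflammation in the nervous system. Cells answer inflammatory signals largely through the transcription factors NF-kB, C/EBP and AP-1, which switch on acute-phase proteins and chemokines together with inhibitors that limit the response.

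The libraries were made from the 3′ ends of poly(A) RNA, so that a count of reads stands for transcripts with no correction for length. Between 2392063 and 2750965 reads lay on genes in the CBD libraries and between 2942410 and 4162843 in the vehicle libraries. Reads outside genes made up 19.4% ± 0.608 (SD, n = 3) of the uniquely mapped reads with CBD and 21.4% ± 0.714 with vehicle, and the groups did not overlap. Mitochondrial genes took 7.64% ± 0.232 of the reads on genes with CBD and 8.92% ± 0.782 with vehicle, again with no overlap. These differences of depth and content run along with the treatment, and their part in the results below was not tested beyond the alternative fits named with them. At 3 µM, the share outside genes was 21.4% ± 0.487, like that of vehicle, while the mitochondrial share was 7.83% ± 0.363, like that of 0.75 µM. Counts of pairs of libraries were also compared by a chi-square per gene, which grows with depth. It was 2.17 to 2.56 among the CBD libraries and 5.8 to 7.01 among the vehicle libraries. Between the groups it was 4.33 to 6.69, so vehicle libraries differed from each other about as much as from CBD libraries.

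**Figure D1:**
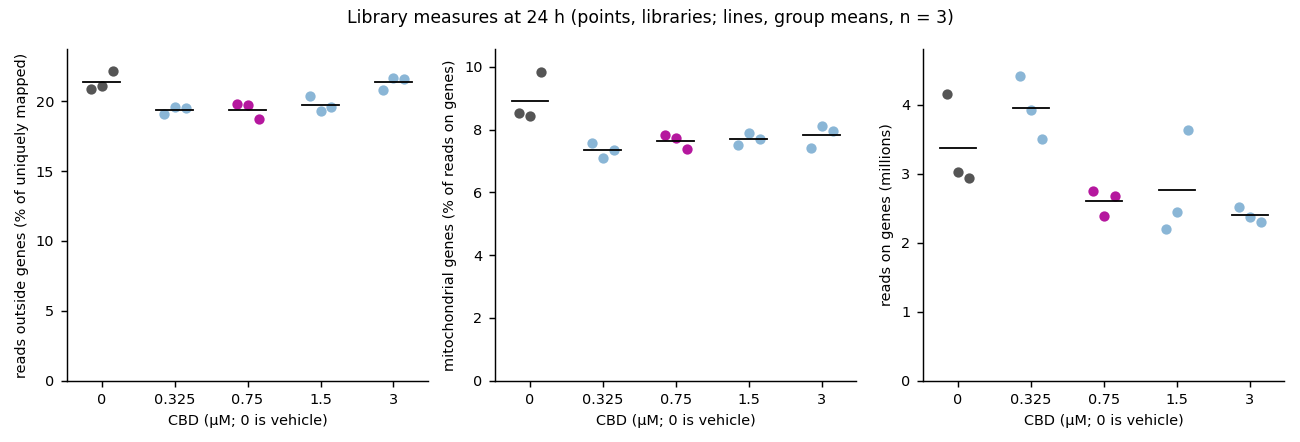
Share of uniquely mapped reads outside genes, share of gene reads on mitochondrial genes, and reads on genes in each 24 h library, by CBD dose (points, libraries, lines, group means, n = 3). The 3 libraries at 0.75 µM (magenta) lie below the 3 vehicle libraries (grey) in all 3 measures.

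At 0.75 µM, 10 of 12118 genes tested rose and 0 fell, at a false discovery rate (FDR) below 0.1 in the quasi-likelihood test of edgeR. The percentage called was 0.0825%. The genes were *Saa3*, *Il1rn* and *Cxcl5* of the inflammatory response, the contractile kinase *Mylk*, the collagenase *Mmp13*, the signalling regulators *Rgs4* and *Nkd2*, the retinoic acid hydroxylase *Cyp26b1*, the mitochondrial RNA-binding protein *Lrpprc* and *Elp6* of the Elongator complex. Their mean levels with CBD were 1.53 to 2.54 times those of vehicle. At an unadjusted p below 0.05, 4.07% of the genes tested were higher with CBD (493) and 3.56% lower (431). The 3 CBD libraries lay all above or all below the 3 vehicle libraries for 14.9% of the genes. Levels are given below in CPM, the reads of a gene relative to all gene reads of its library after TMM scaling, and changes as log2 fold changes (LFC) of CBD against vehicle.

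**Figure D2:**
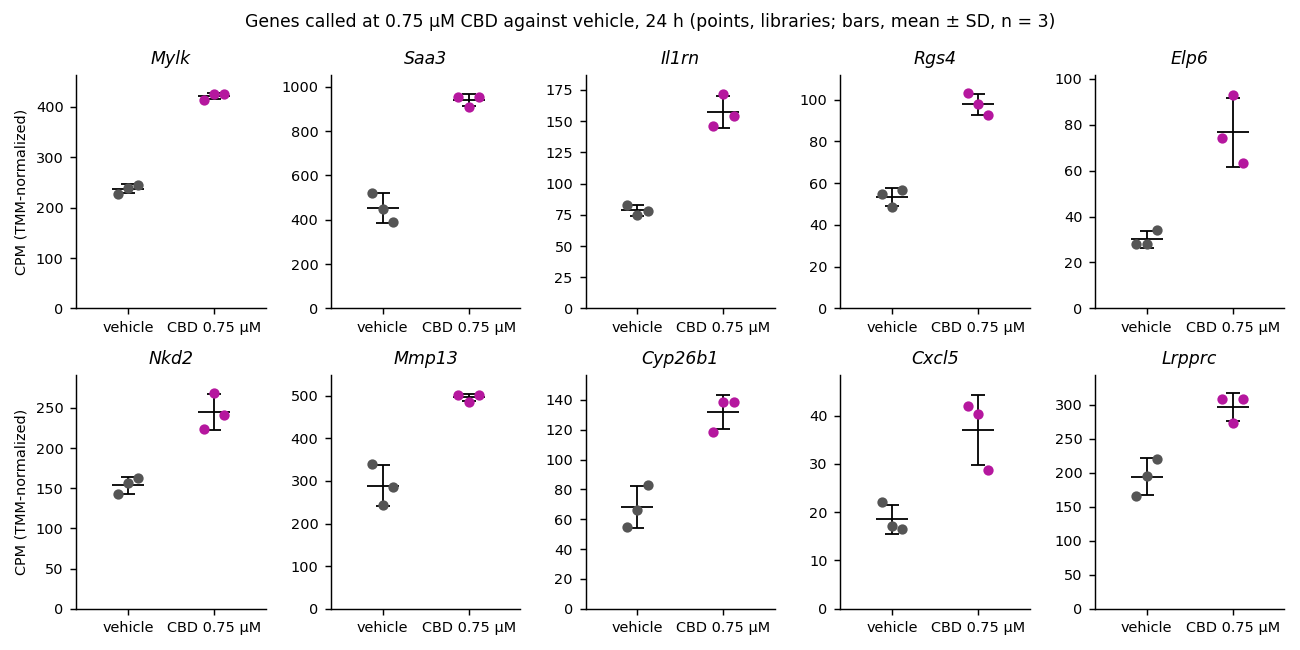
CPM of the 10 genes called at 0.75 µM of CBD against vehicle at 24 h (points, libraries, bars, mean ± SD, n = 3). In each panel, all 3 CBD libraries lie above all 3 vehicle libraries.

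*Saa3* (ENSMUSG00000040026, chr7:46711998-46715700 of GRCm38) encodes an acute-phase serum amyloid A protein made outside the liver. It was at 954, 908 and 956 CPM with CBD and at 522, 449 and 388 CPM with vehicle. The CBD libraries were close to each other, and the lowest of them was far above the highest vehicle library (LFC 1.05, standard error 0.15, edgeR FDR 0.000862). *Il1rn* (ENSMUSG00000026981, chr2:24336853-24351494), whose product blocks the interleukin-1 receptor, was at 146, 172 and 154 CPM against 83, 74.6 and 78.2 CPM. Its level doubled with little spread in either group (LFC 1.0, standard error 0.158, FDR 0.00324). *Cxcl5* (ENSMUSG00000029371, chr5:90759360-90761624), a chemokine that draws neutrophils, was at 42, 40.4 and 28.7 CPM against 22, 17.2 and 16.5 CPM, and 1 CBD library came near the highest vehicle library (LFC 0.98, standard error 0.212, FDR 0.0965).

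*Mylk* (ENSMUSG00000022836, chr16:34745210-35002420) encodes the kinase that phosphorylates myosin light chains and starts contraction of the actomyosin skeleton. It had the smallest p of all genes, at 414, 425 and 425 CPM with CBD and 228, 239 and 245 CPM with vehicle. Both groups were narrow and lay far apart (LFC 0.83, standard error 0.11, FDR 0.000432). *Mmp13* (ENSMUSG00000050578, chr9:7272514-7283331), a collagenase, was at 501, 486 and 501 CPM against 339, 244 and 285 CPM, with the vehicle libraries more spread than those of CBD (LFC 0.78, standard error 0.159, FDR 0.0704). *Rgs4* (ENSMUSG00000038530, chr1:169741477-169747642) speeds the shut-off of G proteins after receptor activation. It was at 103, 97.7 and 92.9 CPM against 54.8, 48.6 and 57 CPM, and neither group had a library apart from the rest (LFC 0.87, standard error 0.148, FDR 0.00751).

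*Elp6* (ENSMUSG00000054836, chr9:110305173-110322102) had the largest LFC of the 10. Elongator, of which it is a subunit, modifies the wobble base of transfer RNAs. It was at 74, 92.7 and 63.1 CPM with CBD and at 28, 28 and 34.3 CPM with vehicle, and the CBD libraries were the more spread (LFC 1.35, standard error 0.243, FDR 0.0162). *Nkd2* (ENSMUSG00000021567, chr13:73818534-73847631), an inhibitor of Dishevelled in Wnt signalling, was at 224, 268 and 242 CPM against 142, 156 and 163 CPM (LFC 0.67, standard error 0.124, FDR 0.0191). *Cyp26b1* (ENSMUSG00000063415, chr6:84571414-84593908), which clears retinoic acid, was at 118, 139 and 139 CPM against 54.8, 66.5 and 82.7 CPM, and its vehicle libraries spread more widely than those of CBD (LFC 0.96, standard error 0.202, FDR 0.0815). *Lrpprc* (ENSMUSG00000024120, chr17:84705247-84790789), which stabilizes messenger RNAs of the mitochondrial genome, was at 309, 273 and 308 CPM against 166, 196 and 221 CPM (LFC 0.61, standard error 0.133, FDR 0.0965).

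These calls stood unequally firm. DESeq2 on the same 15 libraries called 37 genes, the 10 among them, with 29 higher and 8 lower. The lack of lower calls thus depended on the test. With edgeR, *Mylk*, *Saa3*, *Il1rn* and *Rgs4* stayed called when any of the 15 libraries of 24 h was left out. *Cxcl5* stayed called in 5 of 15 such fits and *Lrpprc* in 6. Once the reads outside genes entered the fit as a covariate, 0 genes were called by edgeR, 627 had an unadjusted p below 0.05, and the LFC of *Mylk* was 0.86 (standard error 0.193) and that of *Saa3* 1.12 (standard error 0.255). When the 15 libraries of 6 h entered the fit as well, a fit added once the values were known, 4 genes were called for the same contrast, *Saa3*, *Il1rn*, *Rgs4* and *Elp6*. The other 6 of the 10, *Mylk* included, were then above the threshold with edgeR FDR values of 0.219 to 0.365, and the LFC of *Mylk* was 0.84 (FDR 0.259). Annotated genes on the opposite strand overlap *Mylk* (3 antisense genes), *Nkd2* (1 pseudogene) and *Lrpprc* (1 gene), and the strand setting of the counting is not given in the sources used here.

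The promoters of 5 called genes are shown, chosen because they hold motifs of the factors named above. Whether these factors act on the genes was not tested. Promoter sequences (250 bases before to 50 after a start, RefSeq, GRCm38.p6) were found for 9 of the 10 genes, all but *Cxcl5*, and were searched on both strands. AP-1 was searched as TGACTCA with C or G in its middle. The site of C/EBP was searched as TTGCNNAA and that of NF-kB as GGGNNTTTCC. The site of TEAD factors was GGAATG and the TATA box was TATAAA. The cAMP response element (CRE) was searched as TGACGTCA and the SRF site by its CArG pattern. Capitals mark every match.
Saa3 chr7:46715627-46715926 (- strand): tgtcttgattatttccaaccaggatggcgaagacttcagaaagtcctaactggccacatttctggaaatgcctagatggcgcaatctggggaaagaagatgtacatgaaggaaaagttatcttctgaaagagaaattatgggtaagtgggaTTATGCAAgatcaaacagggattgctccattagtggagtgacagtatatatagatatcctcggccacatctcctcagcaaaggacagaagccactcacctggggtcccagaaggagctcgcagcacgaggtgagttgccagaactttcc
Il1rn chr2:24345121-24345420 (+ strand): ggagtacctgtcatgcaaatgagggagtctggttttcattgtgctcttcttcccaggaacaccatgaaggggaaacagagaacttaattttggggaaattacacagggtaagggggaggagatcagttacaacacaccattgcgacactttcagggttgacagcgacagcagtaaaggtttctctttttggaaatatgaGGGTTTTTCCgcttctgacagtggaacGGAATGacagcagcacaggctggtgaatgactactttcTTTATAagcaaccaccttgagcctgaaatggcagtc
Mmp13 chr9:7272264-7272563 (+ strand): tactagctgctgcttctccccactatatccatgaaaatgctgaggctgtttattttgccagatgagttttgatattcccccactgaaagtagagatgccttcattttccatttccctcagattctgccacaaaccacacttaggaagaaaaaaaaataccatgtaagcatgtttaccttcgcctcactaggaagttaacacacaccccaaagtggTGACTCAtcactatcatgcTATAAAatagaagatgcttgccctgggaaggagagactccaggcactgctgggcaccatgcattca
Mylk chr16:34784700-34784999 (+ strand): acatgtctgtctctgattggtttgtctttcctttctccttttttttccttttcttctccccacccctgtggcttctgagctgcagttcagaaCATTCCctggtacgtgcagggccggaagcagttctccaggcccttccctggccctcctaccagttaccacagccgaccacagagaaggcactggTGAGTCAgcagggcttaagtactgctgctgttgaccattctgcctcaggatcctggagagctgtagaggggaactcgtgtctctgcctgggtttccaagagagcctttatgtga
Rgs4 chr1:169747593-169747892 (- strand): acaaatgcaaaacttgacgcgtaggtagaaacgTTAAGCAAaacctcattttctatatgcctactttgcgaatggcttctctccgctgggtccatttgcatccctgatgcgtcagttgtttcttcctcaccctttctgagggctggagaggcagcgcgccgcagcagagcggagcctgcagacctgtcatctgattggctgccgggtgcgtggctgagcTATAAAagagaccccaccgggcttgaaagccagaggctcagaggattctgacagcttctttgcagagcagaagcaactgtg
AP-1 letters stood in the windows of *Mmp13*, *Mylk* and another start of *Il1rn*, 3 of 9 genes, and in 5.2% of all 32851 promoters. C/EBP letters stood in those of *Saa3* and *Rgs4* (10.8% of all promoters), and NF-kB letters in that of *Il1rn* (1.63% of all promoters). The TATA box was found for 4 genes (13.6% of all promoters) and the TEAD site for 2 (14.7%). CRE (1.79% of all promoters) and the SRF site (1.63%) were found in none of the 9. The windows of *Elp6*, *Nkd2* and *Lrpprc* held no match to any motif searched, and that of *Cyp26b1* only TATA letters. *Il1rn* has 3 starts in the table and thus more letters to match. These are matches of letters, and which start was used in these cells was not measured.

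**Figure D3:**
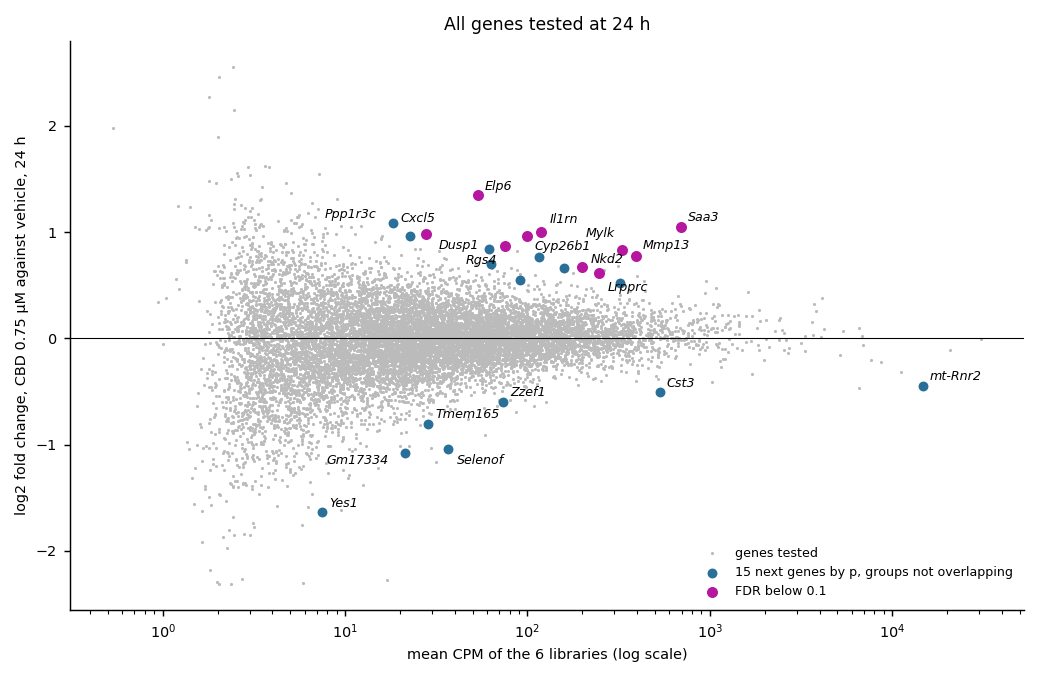
LFC of 0.75 µM of CBD against vehicle at 24 h and mean CPM of the 6 libraries on a log axis for 12118 genes tested (grey), the 10 genes called (magenta) and the 15 next genes by p whose groups did not overlap (blue). The called genes lie on the upper side, between LFC 0.61 and 1.35, and *mt-Rnr2* is the most abundant of the next genes, at LFC −0.45.

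Below the threshold, the 15 next genes by p without overlap had FDR values of 0.112 to 0.156, and 8 of them were higher and 7 lower with CBD. Of the higher ones, *Dusp1*, a phosphatase that switches off MAP kinases, was at 90.9, 75.8 and 69.9 CPM against 49.1, 41.2 and 41.2 CPM (LFC 0.84, FDR 0.112). The complement component *C3* was at 145 ± 21.1 CPM against 85.5 ± 16 CPM (LFC 0.77, FDR 0.112), and the iron-siderophore binder *Lcn2* at 77.8 ± 8.32 CPM against 48.1 ± 5.47 CPM (LFC 0.70, FDR 0.156). *Amotl2*, an angiomotin that restrains YAP (LFC 0.66), *Ism1* (0.96), *Ppp1r3c*, which targets protein phosphatase 1 to glycogen (1.08), *Nudt4* (0.52) and *Katnbl1* (0.55) were the others, all at FDR 0.156.

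On the lower side, *mt-Rnr2*, the large ribosomal RNA of mitochondria, was at 12579, 12758 and 11994 CPM with CBD and 18178, 17411 and 15232 CPM with vehicle (LFC −0.45, edgeR FDR 0.112). DESeq2 called it lower (FDR 0.00733). The libraries were made from poly(A) RNA, so its counts need not follow the total amount of this ribosomal RNA. *Cst3*, the secreted protease inhibitor cystatin C, was at 438 ± 40 CPM against 623 ± 72.4 CPM (LFC −0.51, FDR 0.156). The tyrosine kinase gene *Yes1* had few reads, at 3.63 ± 1.53 CPM against 11.3 ± 2.84 CPM (LFC −1.64, FDR 0.153). *Gm17334* (LFC −1.08), *Tmem165* (−0.80), *Selenof* (−1.04) and *Zzef1* (−0.60) made up the rest. Direction went with level over all genes. Among the 2003 genes above 100 CPM, 154 were higher and 51 lower at an unadjusted p below 0.05, whereas among the 3450 genes below 10 CPM 57 were higher and 119 lower. The part of the lower depth of the CBD libraries in this was not tested gene by gene. With every library thinned to the lowest total, 11 genes were called, 9 of them among the 10.

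Groups of genes were described by their tested members, beside a median LFC of −0.007 over all genes tested, of which 48.8% had a positive LFC. Signs went with level, and 57.1% of genes below 10 CPM but 42.5% of those above 100 CPM had a negative LFC. The lists were not matched for level. They were written with earlier results of these data known, so a called member or a shifted median is not independent evidence about a list. Acute-phase and inflammatory mediators had 29 tested members of 41, of which 3 rose, and 9 were higher and 1 lower at an unadjusted p below 0.05 (median LFC 0.235). Beyond those above, the serum amyloid *Saa2* was at 10.8 ± 4.63 CPM against 3.63 ± 1.69 CPM, and close copies share reads with it. The haemoglobin scavenger haptoglobin (*Hp*) was at 41.9 ± 2.83 CPM against 24 ± 6.78 CPM, and the vasodilator peptide gene *Adm* at 242 ± 2.03 CPM against 154 ± 41.9 CPM. The chemokine *Cxcl12* was at 1873 ± 38.6 CPM against 1384 ± 189 CPM. *Csf1*, the growth factor of macrophages, was lower in all CBD libraries than in vehicle, at 89 ± 3.44 CPM against 111 ± 13.5 CPM (LFC −0.32, FDR 0.601). The groups overlapped for the remaining tested members of the list. *Ccl2*, a chemokine for monocytes, was at 12.9 ± 2.45 CPM against 17.9 ± 3.29 CPM, *Ptgs2* at 23.9 ± 4.04 CPM against 25.4 ± 3.71 CPM, *Vcam1* at 76 ± 4 CPM against 74.4 ± 8.24 CPM, and *Il6* at 4.38 ± 0.703 CPM against 3.69 ± 0.499 CPM.

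Of the NF-kB subunits and feedback inhibitors, 23 of 24 were tested and 0 were called, with 4 higher and 0 lower at an unadjusted p below 0.05 (median LFC 0.145). The deubiquitinase *Cyld*, which restrains NF-kB, was at 76.9, 80 and 76.7 CPM against 57.8, 51 and 51.1 CPM (LFC 0.54, FDR 0.164), *Tnip1*, a partner of the inhibitor A20, had LFC 0.31 (FDR 0.481) and the kinase *Ikbkb* LFC 0.35 (FDR 0.596). Among the MAP kinase phosphatases, Sprouty, Spred and RGS proteins, 1 of 26 tested rose (*Rgs4*), and 3 were higher and 0 lower at an unadjusted p below 0.05. *Dusp6*, the phosphatase of ERK, was at 47.3 ± 5.01 CPM against 29.5 ± 10.6 CPM (LFC 0.66, FDR 0.485). Early-response genes were divided, with 0 of 36 called, 2 higher and 5 lower at an unadjusted p below 0.05 and a median LFC of 0. The antiproliferative gene *Tob2* was at 54.5, 52.7 and 53.6 CPM against 84.9, 73.3 and 92.3 CPM (LFC −0.64, FDR 0.204), its relative *Btg1* had LFC −0.68 (FDR 0.416), and the stress sensor *Gadd45g* LFC 0.45 (FDR 0.411).

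Among metalloproteinases and their inhibitors, 1 of 21 tested rose (*Mmp13*), with 3 higher and 1 lower at an unadjusted p below 0.05 and a median LFC of 0.241. The aggrecanase *Adamts1* was at 470, 450 and 525 CPM against 368, 255 and 336 CPM (LFC 0.59, FDR 0.332), and *Mmp11* had LFC 0.59 (FDR 0.409). *Reck*, a membrane inhibitor of metalloproteinases with few reads, was at 0.792 ± 0.446 CPM against 2.49 ± 0.501 CPM, with all CBD libraries below those of vehicle (LFC −1.62, FDR 0.595). Contractile and Hippo pathway genes had 1 of 49 called (*Mylk*), with 6 higher and 2 lower at an unadjusted p below 0.05 (median LFC 0.078). *Ankrd1*, a target of YAP, was at 48.5 ± 8.16 CPM against 35.6 ± 8.86 CPM, with overlapping groups (LFC 0.46, FDR 0.602). Of the Wnt receptors, inhibitors and targets, 1 of 30 tested rose (*Nkd2*), with 2 higher and 3 lower at an unadjusted p below 0.05. The receptor *Fzd8* was at 97.2, 74.1 and 77 CPM against 55.2, 52.3 and 52.1 CPM (LFC 0.64, FDR 0.204), and *Lef1*, the nuclear partner of beta-catenin, was near the lowest levels tested, at 1.02 ± 0.747 CPM against 3.93 ± 2.15 CPM. Of the retinoid genes, 1 of 12 tested rose (*Cyp26b1*), with 2 higher and 3 lower. The retinoic acid receptor *Rara* was at 16.4 ± 1.12 CPM against 26.7 ± 2.61 CPM (LFC −0.70, FDR 0.391), and *Rdh10*, which makes retinaldehyde, had LFC −0.42 (FDR 0.55).

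The mitochondrially encoded genes were the only list of the 21 pathway lists whose tested members were all on the same side. All 10 had a negative LFC, beside 6210 of the 12118 genes tested. Of the 10, 0 were called and 6 had an unadjusted p below 0.05, with a median LFC of −0.294. *mt-Rnr1*, the small ribosomal RNA, was at 5609, 5589 and 5248 CPM with CBD and 7555, 8250 and 7000 CPM with vehicle (LFC −0.47, FDR 0.216). As for *mt-Rnr2*, counts from poly(A) RNA need not follow its total amount. *mt-Nd3*, a subunit of complex I, had few reads, at 1.93 ± 0.301 CPM against 9.79 ± 5.79 CPM. Against the same vehicle libraries, the median LFC of the list was −0.275 with 0.325 µM, −0.196 with 1.5 µM and −0.144 with 3 µM, and it was 0.077 at 0.75 µM after 6 h. Vehicle library A30 had the highest mitochondrial share of the 6.

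Of the Elongator subunits and partners, 1 of 12 tested rose (*Elp6*), 2 were higher and 0 lower at an unadjusted p below 0.05, and 7 had a positive and 5 a negative LFC (median 0.196). The catalytic subunit *Elp3* was at 68.3 ± 2.96 CPM against 58.3 ± 9.13 CPM and *Elp2* at 144 ± 11.8 CPM against 123 ± 8.42 CPM, both with FDR values above the threshold. *Urm1*, which supplies sulfur to the same base, had LFC 0.24 (FDR 0.652). The subunit *Elp4* had few reads and was lower in all CBD libraries, at 2.42 ± 0.824 CPM against 5.27 ± 1.35 CPM (LFC −1.10, FDR 0.701).

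In each of 10 further pathway lists, 0 genes were called by edgeR, and the counts that follow are those at an unadjusted p below 0.05. Autophagy genes had 28 of 35 tested members with a positive LFC, beside 48.8% of all genes tested. At an unadjusted p below 0.05, 4 were higher and 0 lower (median LFC 0.116). *Map1lc3b*, which encodes the autophagosome protein LC3B, was at 513, 482 and 523 CPM against 358, 354 and 403 CPM (LFC 0.45, FDR 0.312), *Pik3r4* had LFC 0.53 (FDR 0.34) and *Gabarapl1* LFC 0.31 (FDR 0.445). NRF2 antioxidant and iron genes had 0 higher and 5 lower of 32 (median LFC −0.108). The ferritin light chain *Ftl1* was at 19.4 ± 4.18 CPM against 43.7 ± 11.8 CPM, the lipid peroxidase *Gpx4* at 13.3 ± 2.27 CPM against 26.7 ± 7.99 CPM, and haem oxygenase *Hmox1* at 30.9 ± 5.02 CPM against 46.3 ± 8.37 CPM. *Ftl1*, *Gpx4* and *Rps6* have close copies in the genome, and reads shared among copies were not counted on them.

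Cytosolic ribosomal protein genes had 7 higher and 2 lower of 78 (median LFC 0.068), with *Rps26* at 4147 ± 46.5 CPM against 3323 ± 138 CPM, *Rpl23* at 1265 ± 110 CPM against 911 ± 103 CPM and *Rps6* at 6.91 ± 3.02 CPM against 18.3 ± 4.74 CPM. Proteasome genes had 3 higher and 1 lower of 45, among them the assembly factor *Pomp* (LFC 0.40, FDR 0.34), *Psma2* (LFC 0.40) and *Psmg4* (LFC 0.37). Translation initiation factors and poly(A) binding proteins had 2 higher and 2 lower of 46, with *Pabpc1* at LFC −0.38 (FDR 0.371), *Eif3a* at 0.28 and *Eif6* at −0.27. Heat shock proteins and co-chaperones had 1 higher and 1 lower of 44, *Hspa4* (LFC 0.32) and *Hsp90b1* (LFC −0.35), and the next by p was *Chordc1* (LFC 0.25). Interferon-stimulated genes had 5 higher and 2 lower of 39, with *Ifi27* at LFC 0.46 (FDR 0.391), *Ifi44* at −1.40 and *Ifit3* at 0.71.

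The p53 targets had 1 higher and 4 lower of 25, the ubiquitin ligase *Mdm2* at LFC 0.51 (FDR 0.371), *Phlda3* at −0.46 and *Sesn1* at −1.02. The integrated stress response had 0 higher and 1 lower of 29, *Cebpb* at LFC −0.42 (FDR 0.569), and the next by p were the amino acid transporter *Slc38a2* (LFC −0.17) and the serine synthesis enzyme *Phgdh* (LFC −0.37). Sterol genes had 2 higher and 1 lower of 27, *Fdft1* (LFC 0.60, FDR 0.445) and *Hmgcs1* (LFC 0.42) of the synthesis pathway and their regulator *Srebf1* (LFC −1.15) at 2.56 ± 0.978 CPM against 5.82 ± 2.38 CPM.

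**Figure D4:**
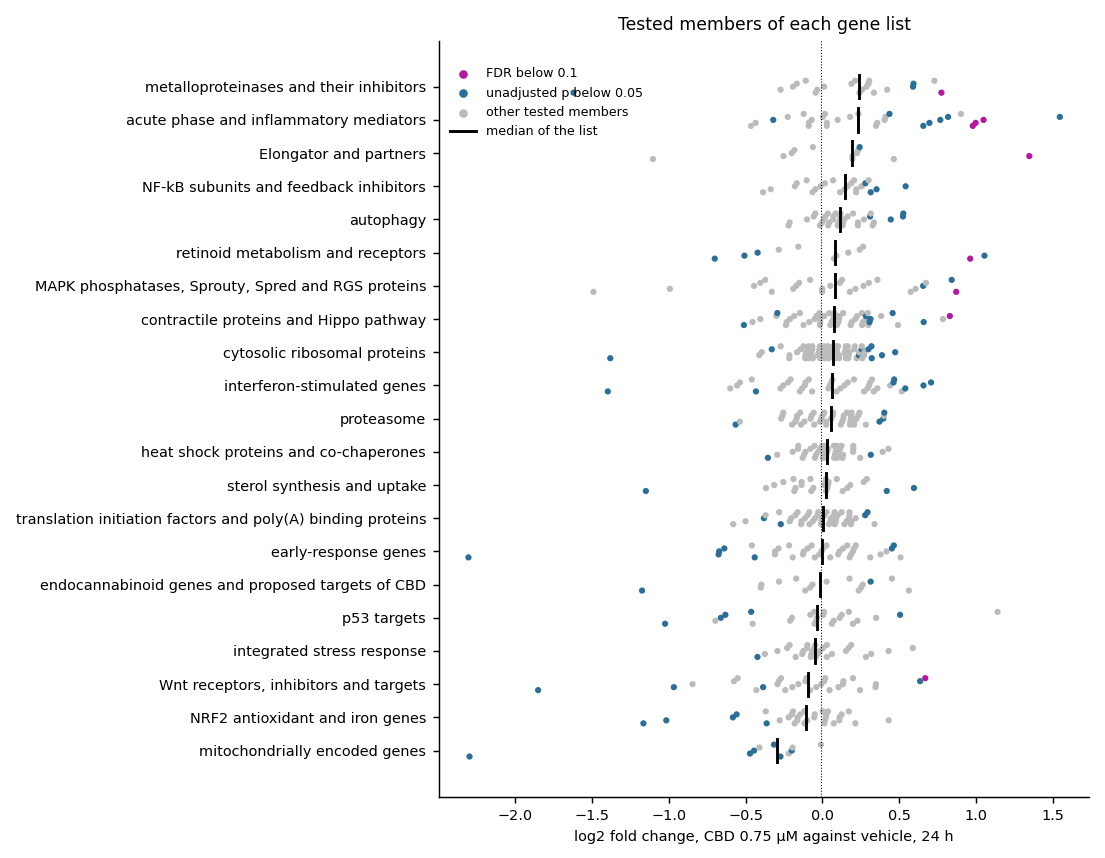
LFC of 0.75 µM of CBD against vehicle at 24 h for the tested members of 21 gene lists (points, genes, magenta at FDR below 0.1, blue at unadjusted p below 0.05, black bars, list medians, dotted line, median of all genes). The mitochondrially encoded genes lie furthest to the lower side, at a median of −0.294, and the metalloproteinases (0.241) and inflammatory mediators (0.235) furthest to the higher side. The lists were written with earlier results of these data known.

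Of the 40 endocannabinoid genes and proposed targets of CBD, 16 had enough reads to be tested, 0 were called, and 1 was higher and 1 lower at an unadjusted p below 0.05. The cannabinoid receptors *Cnr1* and *Cnr2*, *Gpr55*, *Trpv1*, *Trpm8* and *Htr1a* had 0 reads in all 6 libraries. A library with 0 reads allows a level of up to 0.721 to 1.25 CPM (3 reads), for counting error only. *Trpv2* had 29 reads over the 6 libraries and *Pparg* 37. The members with the most reads were the voltage-dependent anion channels of the outer mitochondrial membrane *Vdac2* (4183), *Vdac1* (3364) and *Vdac3* (1747) and the adenosine transporter *Slc29a1* (2315). *Slc29a1* was at 120 ± 11.6 CPM against 135 ± 25.4 CPM, with overlapping groups (LFC −0.17, FDR 0.86). Of the proposed receptors, *Ppard* had 633 reads (LFC −0.08), the channel *Trpv4* 165 (LFC 0.03) and the adenosine receptor *Adora2b* 88 (LFC −0.28). *Vdac2* was at 272, 259 and 262 CPM against 202, 232 and 204 CPM (LFC 0.31, FDR 0.412). *Napepld*, an enzyme of anandamide synthesis, was at 2.57 ± 0.719 CPM against 5.84 ± 0.94 CPM (LFC −1.18, FDR 0.477), and *Abhd4* of the same pathway had LFC −0.40 (FDR 0.723).

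The labelled cell type was checked against its markers. Of 22 hypothalamic markers, 16 had 0 reads in all 6 libraries, among them *Npy*, *Pomc*, *Sim1* and *Nkx2-1*. The 2 tested were *Insr*, on average at 8 CPM with CBD and 9.63 CPM with vehicle, and *Gnrh1*, at 2.86 and 3.91 CPM. Of 16 neuronal markers 8 were tested, and the list summed to 203 to 208 CPM with CBD and 198 to 209 CPM with vehicle. *Tubb3* was on average at 50.4 CPM with CBD and 50.7 CPM with vehicle, *Eno2* at 45.1 and 41.2 CPM, and *Map2* at 33.3 and 30.5 CPM. *Nefm* was at 24.8 and 29.8 CPM and *Stmn2* at 17.1 and 18.4 CPM, while *Dcx* had 0 reads and *Rbfox3* 0 with CBD and 11 with vehicle. Of 13 mesenchymal markers 12 were tested, and their sum was 12789 to 13510 CPM with CBD and 12659 to 14057 CPM with vehicle. Astrocyte markers summed to 44.6 to 71.8 CPM against 52.4 to 66.2 CPM, with *Gja1* at 30.2 and 33.6 CPM on average and *Gfap* at 0 reads. Microglial ones summed to 292 to 349 CPM against 294 to 336 CPM, of which *Tmem119* was 298 and 293 CPM on average, with *C1qa* and *Itgam* at 0. Endothelial markers summed to 53.5 to 58.9 CPM against 56.3 to 65.4 CPM, with *Flt1* at 55.5 and 60.2 CPM on average and *Cdh5* at 0. Oligodendrocyte markers summed to 1.1 to 4.15 CPM against 0.711 to 1.72 CPM, with *Sox10* at 0. No marker was called, and 1 of all the markers tested, the collagen *Col1a2*, had an unadjusted p below 0.05 (LFC −0.33).

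The neighbouring doses were compared with 0.75 µM directly, in contrasts that give the vehicle libraries no weight. All 15 libraries of 24 h, vehicle included, still entered the fit and its estimate of the spread. Against the mean of 0.325 and 1.5 µM, 0 of 12118 genes were called by edgeR (0%), 601 had an unadjusted p below 0.05, and DESeq2 called 1. The smallest p was that of *Mylk*, which was at 422 ± 6.25 CPM with this dose, 325 ± 40.3 CPM with 0.325 µM, 313 ± 13 CPM with 1.5 µM and 321 ± 17.4 CPM with 3 µM (LFC 0.40 against the neighbours, standard error 0.0931, FDR 0.696). All 3 libraries at 0.75 µM were above every other library of 24 h, and the share of all genes with such a separation was not counted. *Hmgn5* (LFC 0.76), *Pth1r* (1.11), *Prkag1* (0.44) and *Cst3* (−0.43) followed, at the same FDR.

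Against 3 µM, 1 gene was called (0.00825%) and 1563 had an unadjusted p below 0.05. *Oip5* (ENSMUSG00000072980), which helps load the centromeric histone, was at 12.8 ± 2.53 CPM at 0.75 µM and 2.88 ± 0.327 CPM at 3 µM, while vehicle was at 9.69 ± 1.39 CPM (LFC 2.13 of 0.75 µM against 3 µM, standard error 0.352, FDR 0.0199). The next by p were *Gm44010* (LFC −1.40), the smooth muscle protein *Smtn* (−0.87), *Gm8472* (−0.98) and the splicing factor *Bcas2* (−0.90). For *Saa3*, *Il1rn*, *Mmp13* and *Cxcl5* the LFC of 0.75 µM against 3 µM was 0.54, 0.55, 0.61 and 0.75, with FDR values of 0.144 to 0.173. The share of reads outside genes differed between these doses as it did from vehicle, and with that share as a covariate 0 genes were called.

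Changes of the 10 genes at each dose are set side by side against the vehicle libraries, which all doses share. The genes were chosen by their call at 0.75 µM, and that choice by itself favours large values at this dose. In the direct contrast with 0.325 and 1.5 µM, 0 genes were called by edgeR. In the order of rising dose, *Saa3* had LFC values of 1.12, 1.05, 1.04 and 0.51. *Mmp13* had LFC 0.86, 0.78, 0.79 and 0.17 in the same order, and *Cxcl5* 1.0, 0.98, 0.84 and 0.23. The LFC of these 3 genes was smallest at 3 µM, as were those of *Nkd2*, *Cyp26b1* and *Il1rn* that follow. *Mylk* had LFC 0.45, 0.83, 0.40 and 0.44, *Rgs4* 0.54, 0.87, 0.62 and 0.56, *Nkd2* 0.32, 0.67, 0.48 and 0.29, *Cyp26b1* 0.62, 0.96, 0.59 and 0.29, *Lrpprc* 0.20, 0.61, 0.31 and 0.26, and *Il1rn* 0.95, 1.0, 0.75 and 0.45, each with its largest value at 0.75 µM. *Elp6* ran the other way, with LFC −0.18, 1.35, 1.39 and 1.93, and at the highest dose its libraries spread from 65.3 to 178 CPM. At 0.325 µM it was at 22.8, 24.4 and 32.7 CPM (26.7 ± 5.3 CPM), which overlapped vehicle at 28, 28 and 34.3 CPM.

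**Figure D5:**
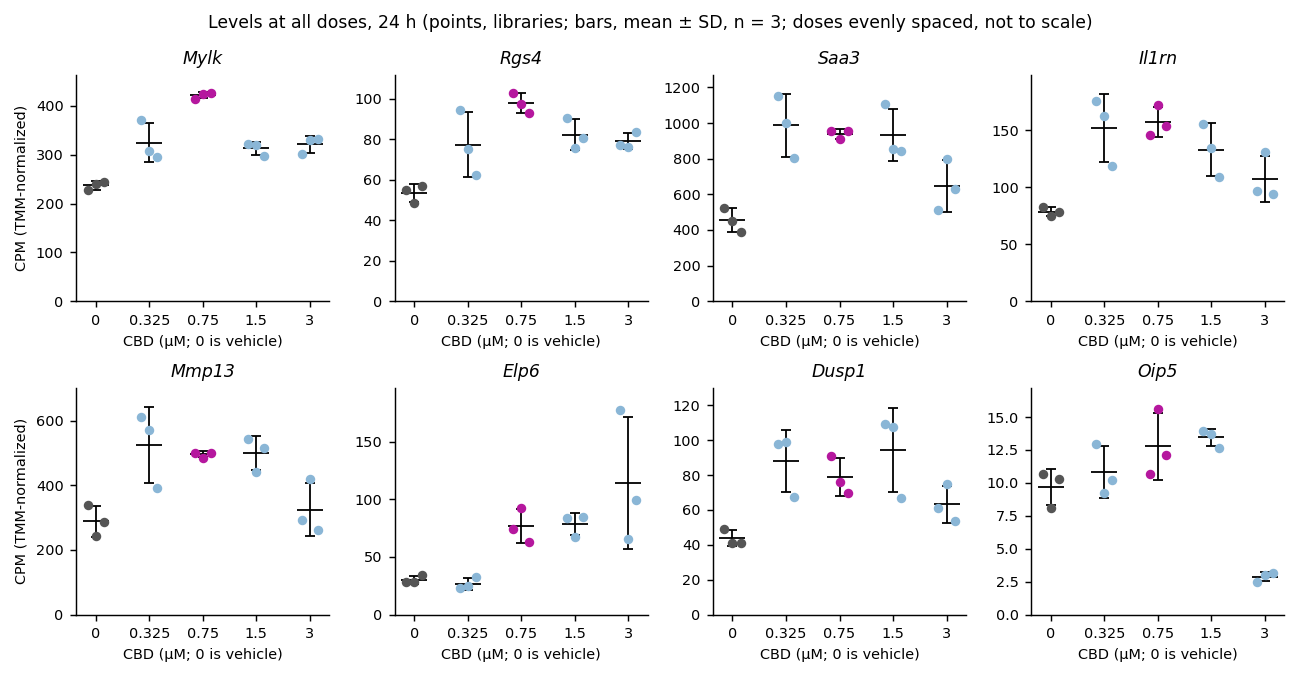
CPM of 8 genes in the 24 h libraries by CBD dose (points, libraries, bars, mean ± SD, n = 3, doses evenly spaced). *Mylk* is highest at 0.75 µM (422 ± 6.25 CPM), *Elp6* overlaps vehicle at 0.325 µM and is higher from 0.75 µM, and *Oip5* is lowest at 3 µM (2.88 ± 0.327 CPM).

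The same dose at 6 h shares no library with the 24 h comparison. Whether the LFC differed between 24 h and 6 h was tested in all 30 libraries on 12790 genes, and 2 were called (0.0156%), *Elp6* and *Dusp1*, with 703 genes at an unadjusted p below 0.05. *Elp6* was at 117, 122 and 108 CPM with CBD and 181, 169 and 125 CPM with vehicle at 6 h, with the CBD libraries all below those of vehicle, the reverse of 24 h (difference of LFC 1.80, FDR 0.0125). *Dusp1* was at 49.2, 60.9 and 79.1 CPM with CBD and 112, 85.4 and 142 CPM with vehicle at 6 h, again with no overlap and in the reverse order of 24 h (difference of LFC 1.71, FDR 0.0359). Only the difference was called for both genes. The change at 6 h was not called by edgeR for *Elp6* (LFC −0.44, FDR 0.528) or *Dusp1* (LFC −0.85, FDR 0.121), nor was that of *Dusp1* at 24 h (FDR 0.112). The share of all genes without overlap at 6 h was not counted. *3110039I08Rik* (−0.99), the X-inactivation RNA *Xist* (−0.88) and *Gm7265* (−2.81) were next by p and were not called. Of the 10 genes called at 24 h, 8 had a positive LFC at 6 h, beside 47.6% of all genes tested. At 6 h, 0.188% of the genes were called, and *Mmp13* was among them (LFC 0.95, FDR 0.0365), and *Saa3* (LFC 0.78, FDR 0.121) and *Il1rn* (LFC 0.70, FDR 0.13) missed the threshold. *Mylk* had LFC 0.21 (standard error 0.222) and *Rgs4* LFC 0.11 (standard error 0.169).

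A list of genes that the study chose on these same libraries for this dose and time is not independent evidence of direction. All 53 of its members matched here were tested, 9 passed the threshold, and 44 were higher and 9 lower with CBD. The called gene outside it was *Cxcl5*. The paper gives the opposite direction. It describes mostly lowered expression at 24 h except at 3 µM, and reports *Mmp13* as downregulated at every dose and *Rgs4* at most. The authors also repeated the 24 h treatment and measured *Mmp13* and other genes by qPCR. They report a moderate correlation of group means with the sequencing over all these genes combined, and none that was significant for a single gene. The direction given here follows the treatment labels and the CPM of the libraries. The reason for the difference was not tested.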

How the data were processed

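The authors trimmed 3′ mRNA-Seq reads with Flexbar, mapped them to GRCm39 with STAR 2.7.5c, counted them per Ensembl gene with HTSeq-count 1.99.2 and deposited raw counts of 56941 genes per library. The 5 summary lines were left out of gene counts. The 15 libraries of 24 h were fitted together with edgeR 4.0.16 (R 4.3.3), using filterByExpr, TMM and the quasi-likelihood F-test, with Benjamini-Hochberg adjustment over the genes tested (threshold 0.1). The contrast of times and the 6 h levels used a fit of all 30 libraries. Named genes are those called, the next by p without overlap up to 25, 3 per list, 5 per other contrast, and targets and markers by level. Other list members were named after their values were seen. Members and lists were chosen with earlier results of these data known. Symbols and positions are those of GENCODE M21 on GRCm38, an older build than that of the counts. Steps were tested on simulated data. Alternatives were DESeq2 1.42.0, RLE, 2 other filters, no mitochondrial genes, fewer groups, a covariate, thinned counts, each library left out and, added after the values were seen, all 30 libraries.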

Additional observations from a re-analysis of the deposited data

Results flagged for a closer look

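The change from vehicle to 0.75 µM of CBD differed between 24 h and 6 h for 2 genes, in a test of the difference itself with edgeR over all 30 libraries. For *Elp6* the LFC at 24 h minus that at 6 h was 1.80 (FDR 0.0125), and for *Dusp1* it was 1.71 (FDR 0.0359). *Elp6* stayed called in every alternative fit of this difference, each library left out in turn included. *Dusp1* was not called without library A10, A11, A22, A29 or A30 (FDR 0.177 to 0.305, differences of 1.56 to 1.68), nor once the reads outside genes entered the fit as a share (1.49, FDR 0.106). *Elp6* in vehicle was at 158 ± 29.5 CPM (SD, n = 3) at 6 h and 30.1 ± 3.64 CPM at 24 h, and with CBD at 116 ± 6.84 CPM at 6 h and 76.6 ± 15 CPM at 24 h. At 24 h, 0.75 µM differed from 3 µM for *Oip5*, with an LFC of 2.13 (edgeR FDR 0.0199). Its counts are low, and leaving out library A16, A18 or A23 gave 0 calls in this comparison.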

How the results depend on the processing

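No paired analysis was possible because no replicate number links a library to one of another group. For 0.75 µM against vehicle, 10 genes were called. DESeq2 called 37 (29 higher, 8 lower), a fit of all genes with any read 79, a minimum of 10 counts in every library 6, only the 6 libraries compared 102 (64 higher, 38 lower), and the share outside genes as a covariate 0. A fit of all 30 libraries, added after the values were seen, called 4 (*Saa3*, *Il1rn*, *Rgs4* and *Elp6*). RLE and the fit without mitochondrial genes called 10 and thinned counts 11. Leaving out 1 library gave 4 to 52 calls, with 52 without A16, 31 without A17 and 16 without A30, against 4 without A23, 5 without A28 and 6 without A19, A22, A24 or A26. Against the mean of 0.325 and 1.5 µM, DESeq2 called 1 gene, no filter 7 and only the groups compared 10, and leaving out a library always 0. Against 3 µM, DESeq2 called 64, no filter 355, thinned counts 10, all 30 libraries 3, and the minimum of 10 counts, only the groups compared and the covariate 0 each. Leaving out 1 library there gave 0 to 945 calls, with 945 without A17, 46 without A27, 6 without A28, 4 without A25 or A29 and 0 without A16, A18 or A23. For the difference between the times, DESeq2 called 4 and no filter 42, and leaving out 1 library gave 1 to 11, with 11 without A3 and 4 without A1. The covariate gave 2 calls there, 1 of them shared, since *Dusp1* was lost (FDR 0.106). Fewer genes were tested with the stricter filter and more without one. The cause of the other moves was not tested. All 2075 recomputed LFC values of the named genes kept their sign. Of the 10 calls, *Elp6* was lost without A23 or A28, *Nkd2* without A23, A24 or A28, and *Mmp13*, *Cyp26b1*, *Cxcl5* and *Lrpprc* were lost without at least 7 single libraries each and with the minimum of 10 counts. The highest FDR of a called gene with 1 library left out was 0.582, and *Cyp26b1* was also lost with thinned counts. With 2392063 to 4162843 gene reads in the 6 libraries, genes of a few CPM rest on few reads.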
